A study of Mus musculus with 12 samples.

Results

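The genes described here are those of the parathyroid hormone-related protein (PTHrP) signal and of the brakes it places on chondrocyte maturation. They are *Pthlh*, which encodes PTHrP, *Pth1r*, which encodes its receptor, *Gnas*, which encodes the stimulatory G protein alpha subunit that the receptor activates, and *Nkx3-2* and *Zfp521*, which encode nuclear factors that hold maturation back. They were chosen by gene symbol, with no threshold on their values, and make up 5 of the 36186 rows of the expression table. RNA-Seq had been carried out on 12 libraries of mouse forelimb zeugopod, the segment with the radius and ulna, at E15.5 on a mixed 129/CD-1 background. The wild type (WT) embryos gave 3 libraries each of resting, proliferative and hypertrophic chondrocytes, and the *aadd* mutants gave the remaining 3. The *aadd* mutants were homozygous for frameshift mutations in *Hoxa9*, *Hoxa10*, *Hoxa11*, *Hoxd9*, *Hoxd10* and *Hoxd11*, each made by a LoxP insertion with a small deletion in the first exon. The cells were captured by laser capture microdissection (LCM) from frozen sections, and some perichondrial cells came with the chondrocytes. In the mutants the zones are not separated, and the whole chondrocyte population was captured as 1 kind of sample. The sample labels nevertheless give the *aadd* libraries the compartment name resting, and they call the hypertrophic libraries hyperproliferative.

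In a growing long bone, chondrocytes pass from a resting to a proliferative and then to a hypertrophic state. PTHrP is made near the ends of the element, and its receptor is most abundant in cells that are about to become hypertrophic. Receptor activation raises cyclic AMP through the stimulatory G protein and so activates protein kinase A, which keeps cells proliferating and delays hypertrophy. Prehypertrophic cells secrete Indian hedgehog, which in turn induces PTHrP, and this feedback loop sets how far from the ends the cells mature.

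The values are NRPKM, reads per kilobase of exon, scaled to the reads of the library (RPKM) and normalized further between libraries. They allow for exon length and library size, but how well they compare between genes was not tested. The value of 1 read implied 1890000 to 3240000 reads per library, and 1 read on 1 kb of exon was worth 0.309 to 0.530 NRPKM. The numbers of reads given below are approximate and cover counting error only. Summed over lists of 10 marker genes per cell type, the hypertrophic markers (such as *Col10a1* and *Ibsp*) were at 74.7 to 86.3 NRPKM in WT resting, 589 to 884 in WT proliferative, 1684 to 3802 in WT hypertrophic and 48.6 to 61.0 in *aadd* libraries. The joint markers (such as *Gdf5* and *Osr2*) summed to 135 to 177 NRPKM in resting, 40.4 to 64.7 in proliferative, 30.2 to 53.9 in hypertrophic and 264 to 287 in *aadd* libraries. Within the joint list *Osr2*, *Erg*, *Prg4* and *Wnt9a* overlapped between resting and *aadd* libraries. The others, *Gdf5*, *Osr1*, *Dcx*, *Sfrp2*, *Barx1* and *Gdf6*, were higher in every *aadd* library than in every resting library. The name hypertrophic used here therefore follows the sums of the hypertrophic list. Of that list *Vegfa* overlapped between resting and hypertrophic libraries, at 28.1 to 57.6 and 18.0 to 48.1 NRPKM. The others were higher in every hypertrophic library than in every resting library. In hypertrophic replicate 1, *Mmp13* and *Spp1* were at 3.05 and 24.1 NRPKM. In replicates 2 and 3 *Mmp13* was at 735 and 661 NRPKM, and *Spp1* at 1083 and 979. The cell cycle markers summed to 354 to 483 NRPKM in resting, 340 to 410 in proliferative, 251 to 446 in hypertrophic and 376 to 452 in *aadd* libraries. They did not set the proliferative libraries apart, and the names resting and proliferative are those of the labels.

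Replicate 1 of the WT hypertrophic group stood apart from replicates 2 and 3. Its osteoclast markers summed to 59.3 NRPKM, against 1379 and 1023 in replicates 2 and 3, and its endothelial markers to 21.7 against 304 and 212. Its cartilage matrix markers summed to 3070 NRPKM, against 747 and 1087. Fits that include the hypertrophic group are therefore given with this library and without it. Those without it rest on replicates 2 and 3, and the part of osteoclasts and endothelial cells in their values was not tested. Replicate 2 of *aadd* had the highest endothelial sum of its group, 37.3 NRPKM against 10.0 and 5.15, and the highest macrophage sum, 44.4 against 15.2 and 12.9. WT proliferative replicate 3 had a skeletal muscle sum of 138 NRPKM against 20.9 and 10.8 in replicates 1 and 2. Its perichondrial and fibroblast sum was 1191 against 579 and 659, and its osteoblast sum 1071 against 530 and 430, with *Col1a1* counted in both. It also had the highest *Pth1r* and the lowest *Pthlh* of its group, and the part of these cells was not tested. Of the erythroid list 7 of 10 markers had a row, as had every marker of the other lists. Markers at 0 in every library of a group were *Phospho1* and *Bglap2* in resting, *Bglap2*, *Cldn5*, *C1qa* and *Klf1* in proliferative, and *Bglap2*, *Ocstamp* and *Dcstamp* in *aadd* cells.

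**Figure D1:**
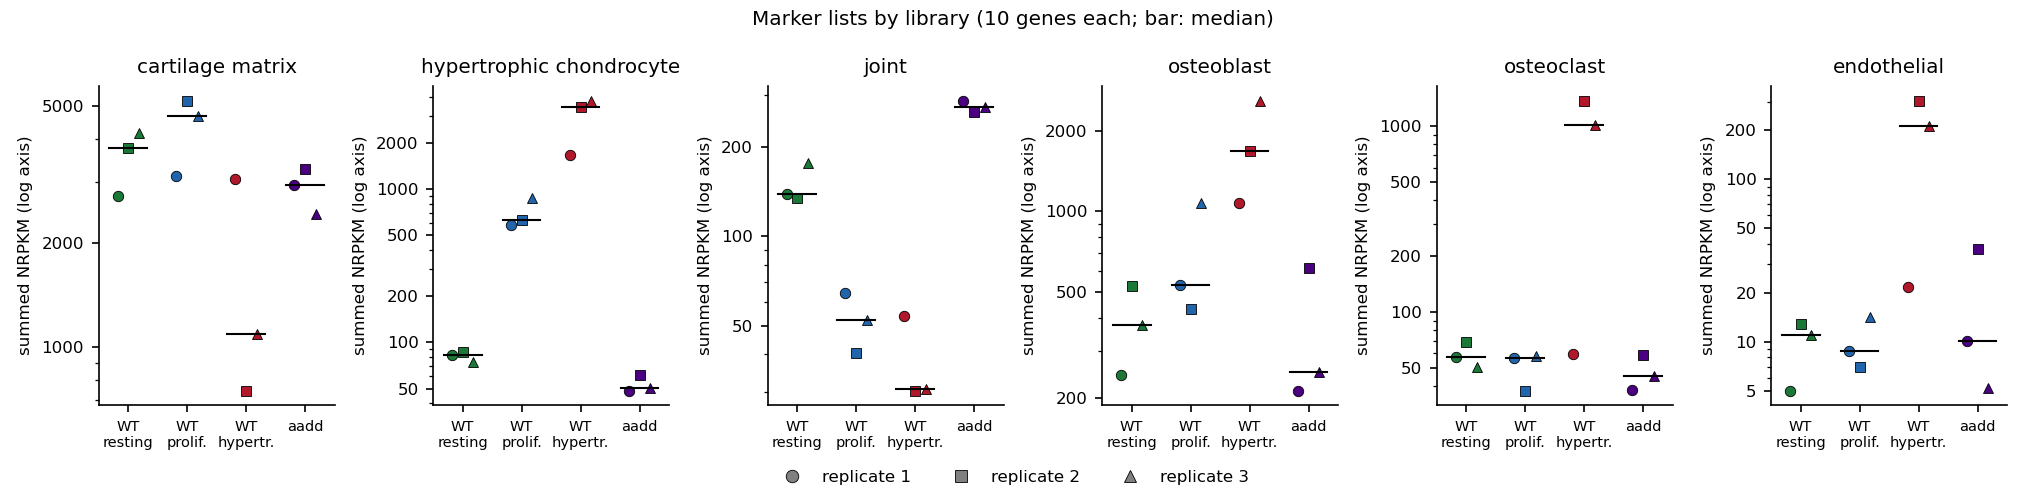
Summed NRPKM of 6 marker lists of 10 genes (log axis) in each of the 12 libraries, with the symbol giving the replicate and the bar the group median. The osteoclast and endothelial panels show WT hypertrophic replicate 1 far below replicates 2 and 3, and the joint panel shows the 3 *aadd* libraries above all 9 WT libraries.

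The 2 genes with the widest range across compartments are the ligand and the receptor. *Pthlh* (gene identifier 19227) lies at chr6:147252110-147264085 of mm10 and *Pth1r* (19228) at chr9:110722085-110747145. The 250 bases before each of their RefSeq transcription starts (GRCm38.p6) are printed because the levels of these genes went opposite ways from resting to proliferative and hypertrophic cells. Each runs 5′ to 3′ in the direction of the gene, which is the minus strand for both, and capitals mark a match to 1 of 4 motifs. The windows are chr6:147264014-147264263 for *Pthlh*, and chr9:110747146-110747395, chr9:110743687-110743936 and chr9:110742611-110742860 for starts 1, 2 and 3 of *Pth1r*.
Pthlh: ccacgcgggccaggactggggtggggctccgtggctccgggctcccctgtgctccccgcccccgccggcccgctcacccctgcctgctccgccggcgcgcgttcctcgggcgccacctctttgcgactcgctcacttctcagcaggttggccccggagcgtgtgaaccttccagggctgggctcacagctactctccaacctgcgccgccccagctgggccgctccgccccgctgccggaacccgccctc
Pth1r start 1: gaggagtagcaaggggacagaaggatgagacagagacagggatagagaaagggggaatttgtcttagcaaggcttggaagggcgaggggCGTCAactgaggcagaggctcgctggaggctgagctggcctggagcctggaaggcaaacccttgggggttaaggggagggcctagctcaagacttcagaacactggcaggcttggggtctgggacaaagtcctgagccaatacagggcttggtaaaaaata
Pth1r start 2: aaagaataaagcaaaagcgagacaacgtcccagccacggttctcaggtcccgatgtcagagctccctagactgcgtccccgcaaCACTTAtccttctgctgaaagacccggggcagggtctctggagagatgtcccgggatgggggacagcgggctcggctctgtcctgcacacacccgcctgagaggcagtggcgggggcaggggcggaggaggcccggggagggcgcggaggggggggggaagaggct
Pth1r start 3: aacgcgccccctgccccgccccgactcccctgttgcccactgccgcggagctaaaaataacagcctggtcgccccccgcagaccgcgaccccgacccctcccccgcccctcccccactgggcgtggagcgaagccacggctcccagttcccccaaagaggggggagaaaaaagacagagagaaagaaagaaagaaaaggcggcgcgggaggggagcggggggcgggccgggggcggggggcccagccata
The motifs, searched on both strands, were the cyclic AMP response core TGACG (reverse complement CGTCA), the Gli core CCACCCA, the Runx core TGTGGT and the Nkx3-2 core TAAGTG (reverse complement CACTTA). The *Pthlh* window held none of these letters. It had a GC content of 75.2%, against a median of 52.4% over 32851 such windows of all genes. The *Pth1r* windows had 56%, 65.6% and 70.4% GC. Start 1 held 1 cyclic AMP response core, 161 to 157 bases before the start, and start 2 held 1 Nkx3-2 core, 166 to 161 bases before it. Cyclic AMP response cores are in 17.8% of all windows, Gli cores in 8.11%, Runx cores in 14% and Nkx3-2 cores in 7.92%, so a match is a description of the sequence and not of binding. Of the 4 windows of *Gnas*, 3 held a cyclic AMP response core, and these are not independent since the windows of starts 2 and 3 overlap. The single *Nkx3-2* window held none of the 4 motifs. Windows were taken for 4 of the 5 members. None was taken for *Zfp521*, since its chromosome was left out when the windows of the members were picked.

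*Pthlh* was high in WT resting cells and in *aadd* cells and low in the other compartments. It was at 18.7, 18.5 and 16.2 NRPKM in the 3 WT resting libraries (mean 17.8 ± 1.42, SD, n = 3) and at 4.04, 5.04 and 2.45 in the WT proliferative (3.84 ± 1.31). The WT hypertrophic libraries had 4.66, 0.409 and 0.888 NRPKM (1.98 ± 2.33), and the *aadd* libraries 25.4, 9.44 and 33.0 (22.6 ± 12). All 3 resting libraries lay above all 6 proliferative and hypertrophic libraries, whereas hypertrophic and proliferative libraries overlapped, as did resting and *aadd*. The mutant libraries spread most, with replicates 1 and 3 above every WT library and replicate 2 below every resting library. These values rest on about 66.9 to 89.5 reads per resting library and 33.6 to 153 per *aadd* library, but on 17.6, 2.14 and 4.28 reads in the hypertrophic libraries. In captured tissue, fewer *Pthlh*-expressing cells and less *Pthlh* RNA per cell cannot be told apart.

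*Pth1r* had the opposite order. It was at 16.4, 18.4 and 16.1 NRPKM in the WT resting libraries (mean 16.9 ± 1.23, SD, n = 3) and at 68.1, 70.8 and 81.7 in the WT proliferative (73.5 ± 7.21). It reached 158, 73.1 and 90.9 NRPKM in the WT hypertrophic libraries (107 ± 44.9) and was at 8.87, 15.2 and 13.0 in the *aadd* libraries (12.4 ± 3.23). Every proliferative and hypertrophic library lay above every resting library, and every *aadd* library lay below every resting library, while proliferative and hypertrophic libraries overlapped. Between 72.3 reads, in *aadd* replicate 1, and 1081 reads, in hypertrophic replicate 1, lay behind these values. The related ligand genes *Pth* and *Pth2* were listed at 0 in all 12 libraries, and the related receptor gene *Pth2r* did not exceed 0.983 NRPKM in any.

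**Figure D2:**
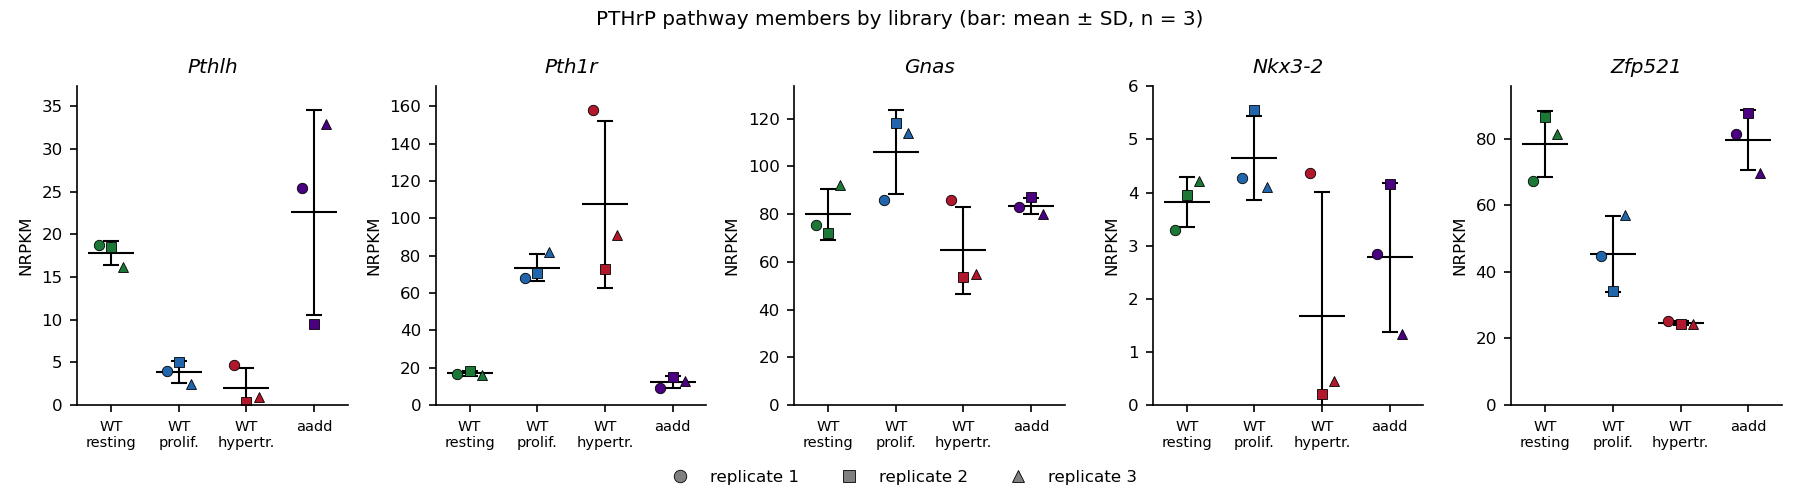
NRPKM of the 5 members (1 panel each, linear axes from 0) in each of the 12 libraries, with the symbol giving the replicate and the bars the mean ± SD of the 3 libraries of a group. *Pthlh* and *Zfp521* are highest in WT resting and *aadd*, *Pth1r* is lowest there, and WT hypertrophic replicate 1 is the highest of its group in all 5 panels.

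The study's criteria for a difference were an unadjusted *P* up to 0.05 in a moderated test with a fold change (FC) of at least 2 between WT compartments, or 1.5 between *aadd* and WT resting cells. The limit of 1.5 was used here for *aadd* against the other WT compartments too, and counts at an FC of 2 are given beside it. The criteria were applied here with limma to log2(NRPKM + 0.1) of the 10936 genes that reached 5 NRPKM in 3 or more libraries. The adjusted *P* given is that of Benjamini and Hochberg over all of these genes, and a log2 FC is on the log2(NRPKM + 0.1) scale. Of the 5 members 4 entered, since *Nkx3-2* reached 5 NRPKM in 1 library only. The smallest *P* that an exact permutation test (two-sided) allows for 3 libraries a group is 0.1, so these calls rest on the model. That same-group libraries came from separate embryos is not stated beyond their being independent sets. The *P* values weigh a difference of group means against the spread between these libraries, which may not be the spread between embryos.

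Between WT proliferative and WT resting cells, the ligand fell and the receptor rose. Of the 4 members tested 2 passed the criteria, where 5.53% of all genes tested did. *Pth1r* rose with a log2 FC of 2.11 ± 0.159 (SE), a 4.31-fold difference (adjusted *P* of 0.00867). *Pthlh* fell with a log2 FC of -2.24 ± 0.276 (SE), or 4.71-fold (adjusted *P* of 0.0343). Both thus had an adjusted *P* under 0.05, as had 0.622% of all genes. Same-numbered libraries of these compartments deviated together, and in a fit that blocks on this number both passed the criteria but neither kept an adjusted *P* under 0.05. It was 0.0659 for *Pth1r*, in a range of 0.00118 to 0.0659 over all alternatives, and 0.0686 for *Pthlh*, in a range of 0.0154 to 0.184. In the blocked fit 0.0823% of all genes had an adjusted *P* under 0.05. *Zfp521* did not reach the required FC (log2 FC of -0.81 ± 0.232, adjusted *P* of 0.190), and *Gnas* had a log2 FC of 0.40 with a 95% interval of -0.07 to 0.88. The libraries of 3 of the 4 members did not overlap between these compartments, as for 24% of all genes tested.

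Between WT hypertrophic and WT proliferative cells 0 of the 4 members passed in limma, where 9.67% of all genes tested did. An unadjusted *P* under 0.05 was reached by 2, *Gnas* and *Zfp521*, both with an FC under 2, among 2115 of all genes. After adjustment 0 of the 10936 genes had a *P* under 0.05 in this comparison. The interval of the log2 FC was -3.48 to 0.48 for *Pthlh* and -0.28 to 1.23 for *Pth1r*, so changes within these limits are compatible with the fit. Without hypertrophic replicate 1, *Pthlh* passed with a log2 FC of -2.42 (adjusted *P* of 0.0230, in a range of 0.0230 to 0.700 over all alternatives), while *Pth1r* had 0.15 and *Gnas* -0.95, an FC under 2. By the criteria 18.4% of all genes then passed, and 17.4% had an adjusted *P* under 0.05. Without proliferative replicate 2, *Zfp521* passed with a log2 FC of -1.03. The libraries of *Gnas* and *Zfp521* did not overlap, 2 of 4 members, as for 24.2% of all genes, although for *Gnas* the highest hypertrophic and the lowest proliferative library both round to 85.8 NRPKM.

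Between WT hypertrophic and WT resting cells, 3 of the 4 members passed, where 13% of all genes did. *Pth1r* was 5.98-fold higher in hypertrophic cells (log2 FC of 2.58 ± 0.304, SE, adjusted *P* of 0.00933), and without hypertrophic replicate 1 its log2 FC was 2.26. Osteoblasts also express the receptor, and their marker sums were 245 to 526 NRPKM in resting, 430 to 1071 in proliferative and 1075 to 2593 in hypertrophic libraries. Perichondrial and fibroblast sums were 494 to 805, 579 to 1191 and 792 to 1811 NRPKM, and *Col1a1* is counted in both lists. The part of these cells in the *Pth1r* values was not tested. *Pthlh* fell with a log2 FC of -3.74 ± 0.775 (adjusted *P* of 0.0447), and -4.65 without that replicate. The size of the *Pthlh* change depends on a few reads in hypertrophic replicates 2 and 3 and on the 0.1 added. *Zfp521* fell with a log2 FC of -1.66 ± 0.169, or 3.16-fold (adjusted *P* of 0.00582), and -1.68 without that replicate. *Gnas* had a log2 FC of -0.33 with an interval of -0.92 to 0.26, and -0.55 without that replicate. The 3 members that passed had an adjusted *P* under 0.05, as had 6.36% of all genes, and their libraries did not overlap, as for 32% of all genes. Without hypertrophic replicate 1 the same 3 passed, where 19.2% of all genes did.

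**Figure D3:**
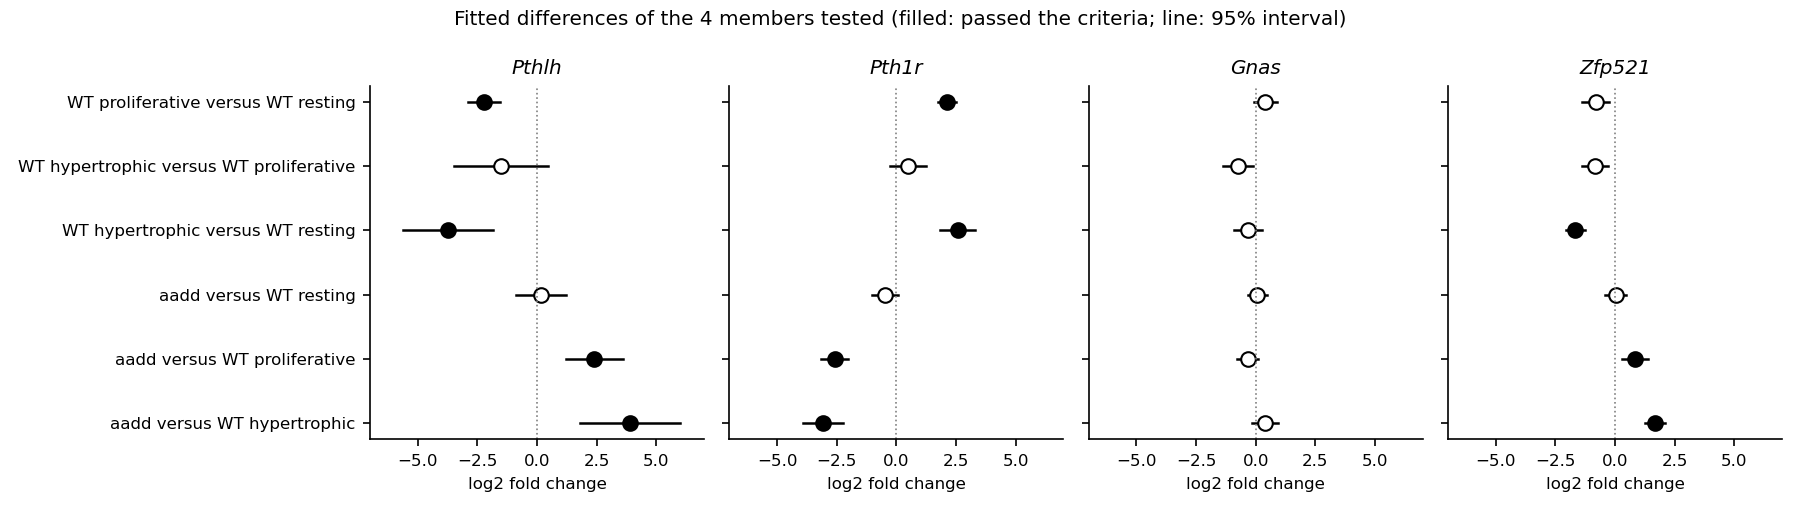
Log2 fold change of the first over the second group named (horizontal axis) in the 6 pairwise comparisons (rows) for the 4 members tested, as points with 95% intervals, filled where the criteria were passed. The *aadd* against WT resting row has 0 filled points, and *Gnas* has 0 in any row.

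The *aadd* cells did not differ from WT resting cells by these criteria in any of the 4 members tested, where 6.56% of all genes did. In limma 0 members had an unadjusted *P* under 0.05, against 1048 of all genes, and 0.119% of all genes had an adjusted *P* under 0.05. *Pth1r* had the lowest *P*, with a log2 FC of -0.48 and an interval of -1.02 to 0.06 (adjusted *P* of 0.582). It was also the 1 member of 4 whose libraries did not overlap, as for 15.4% of all genes. The intervals were -0.88 to 1.21 for *Pthlh*, -0.32 to 0.46 for *Gnas* and -0.40 to 0.45 for *Zfp521*, so that a 2-fold difference in either direction lies outside them for *Gnas* and *Zfp521* but not for *Pthlh*. Replicate 2 of *aadd* decided this count. Without it, *Pthlh* was higher in *aadd* (log2 FC of 0.70, adjusted *P* of 0.409, in a range of 0.409 to 0.997 over all alternatives) and *Pth1r* lower (-0.65, adjusted *P* of 0.464, in a range of 0.464 to 0.937). Both then passed the unadjusted criteria. That replicate also had the highest perichondrial and fibroblast sum of its group, 1034 NRPKM against 484 and 547. Its osteoblast sum was also the highest, 614 against 214 and 252, but *Col1a1*, which is on both lists, gave 371 and *Col1a2* 211. The osteoblast markers *Bglap*, *Bglap2* and *Mepe* were at 0 in it. The endothelial, macrophage, osteoclast, skeletal muscle and erythroid sums of this replicate were the highest of the group as well. The osteoclast sum, 59.0 NRPKM, lay within the 50.9 to 69.4 of the resting libraries, and *Nfatc1* gave 41.9 of it. The part of other cell types in the *Pthlh* and *Pth1r* values of this replicate was not tested.

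Against the other WT compartments the mutant cells had more ligand and *Zfp521* and less receptor. Of the 4 members, 3 passed against WT proliferative, where 15.8% of all genes did, and 3 against WT hypertrophic, where 21.9% did. *Pth1r* was lower in *aadd* than in proliferative cells with a log2 FC of -2.59 ± 0.239 (SE, adjusted *P* of 0.00426), and than in hypertrophic cells with -3.06 ± 0.351 (adjusted *P* of 0.00612). *Pthlh* was higher with log2 FCs of 2.40 ± 0.499 (adjusted *P* of 0.0568) and 3.90 ± 0.876 (adjusted *P* of 0.0476). *Zfp521* was higher with 0.83 ± 0.233 (adjusted *P* of 0.116) and 1.68 ± 0.171 (adjusted *P* of 0.00420). After adjustment 1 of the 4 members had a *P* under 0.05 against proliferative cells, as had 3% of all genes, and 3 did against hypertrophic cells, as had 7.64%. At an FC of at least 2 the counts were 2 of 4, without *Zfp521*, against proliferative cells, where 8.02% of all genes passed, and 3 of 4 against hypertrophic cells, where 13.3% did. *Gnas* did not pass in either, with log2 FCs of -0.33 and 0.40, but without hypertrophic replicate 1 it passed against hypertrophic cells with 0.62 (adjusted *P* of 0.0415, in a range of 0.0415 to 0.645 over all alternatives). Without that replicate the log2 FCs against hypertrophic cells were -2.74 for *Pth1r*, 4.82 for *Pthlh* and 1.70 for *Zfp521*, and 34.2% of all genes passed. These 3 members had no overlapping libraries in either comparison, as for 25.6% and 30.9% of all genes. The *aadd* comparisons share their mutant libraries, and each shares its WT libraries with comparisons between WT compartments, so they are not independent of each other.

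The balance of receptor to ligand followed from these levels. The ratio of *Pth1r* to *Pthlh* NRPKM was 0.874, 0.993 and 0.998 in the WT resting libraries and 16.9, 14.0 and 33.3 in the WT proliferative. It was 34.0, 179 and 102 in the WT hypertrophic libraries and 0.350, 1.61 and 0.396 in the *aadd*. On the NRPKM scale the transcripts were thus near equal in resting cells, and the receptor was in excess in every proliferative and hypertrophic library. The ratios of 179 and 102 rest on about 2.14 and 4.28 *Pthlh* reads, so their size is uncertain. The ratio in *aadd* replicates 1 and 3 was below that of every WT library, and that in replicate 2 was above that of the resting libraries.

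**Figure D4:**
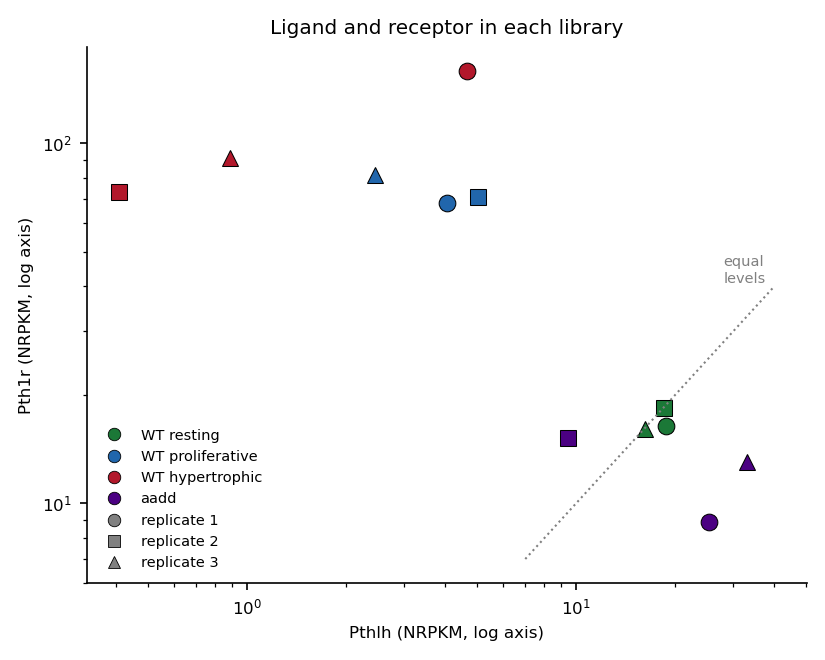
*Pth1r* against *Pthlh* (NRPKM, both axes log) for the 12 libraries, with colour giving the group, symbol the replicate and the dotted line equal levels. The 3 WT resting libraries sit on or beside the line, the proliferative and hypertrophic libraries lie far above it to the left, and *aadd* replicates 1 and 3 lie below it.

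*Gnas* (14683, chr2:174284320-174346742) was the most evenly expressed member. It was at 75.5, 72.2 and 92.2 NRPKM in the WT resting libraries (mean 80.0 ± 10.7, SD, n = 3), at 85.8, 118 and 114 in the proliferative (106 ± 17.7), at 85.8, 53.6 and 54.9 in the hypertrophic (64.8 ± 18.2) and at 83.0, 87.0 and 80.2 in the *aadd* (83.4 ± 3.42). Ordered by mean, from hypertrophic through resting and *aadd* to proliferative, each group overlapped its neighbour. The lowest and highest libraries were hypertrophic replicate 2 and proliferative replicate 2. The locus is complex, and 1 gene-level value cannot separate the stimulatory alpha subunit from the other transcripts of the locus that share its exons. Its antisense gene *Nespos* overlaps it and was listed at 21.4 to 34.6 NRPKM in resting, 25.3 to 43.8 in proliferative, 9.10 to 19.5 in hypertrophic and 25.0 to 35.5 in *aadd* libraries, and use of strand is not stated, so reads from the 2 cannot be told apart.

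*Nkx3-2* (12020, chr5:41761448-41764220), a homeodomain repressor that keeps chondrocytes immature, was the lowest member. It was at 3.30, 3.96 and 4.21 NRPKM in the WT resting libraries (mean 3.83 ± 0.471, SD, n = 3), at 4.28, 5.56 and 4.11 in the proliferative (4.65 ± 0.794), at 4.37, 0.210 and 0.456 in the hypertrophic (1.68 ± 2.34) and at 2.84, 4.16 and 1.34 in the *aadd* (2.78 ± 1.41). Hypertrophic replicate 1 was at the level of the resting and proliferative libraries, whereas replicates 2 and 3 were the lowest of the 12. Behind these values lay about 17.6 reads in hypertrophic replicate 1, 1.17 and 2.33 reads in the others and 6.58 to 19.3 reads elsewhere. With the filter on low values dropped, *Nkx3-2* passed in 0 of the 6 comparisons in limma with all libraries, and in 0 was its unadjusted *P* under 0.05. Its log2 FC was -2.09 between hypertrophic and resting cells, with an interval of -4.87 to 0.69, and -0.58 between *aadd* and resting cells, with -1.70 to 0.55. Hypertrophic replicate 1 decided these calls, since without it *Nkx3-2* passed as lower in hypertrophic cells in all 3 comparisons that include them. The log2 FC was then -3.23 against resting (adjusted *P* of 0.0220) and -3.50 against proliferative (adjusted *P* of 0.0305). It was 2.66 for *aadd* against hypertrophic cells (adjusted *P* of 0.0856). The size of each depends on the few reads of replicates 2 and 3. These 2 libraries also had the lowest cartilage matrix sums of the 12, 747 and 1087 NRPKM, and osteoclast sums of 1379 and 1023. The part of their cell mixture in the *Nkx3-2* values was not tested.

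*Zfp521* (225207, chr18:13687014-13972733) encodes a zinc finger protein that PTHrP induces in chondrocytes and that opposes Runx2. It was at 67.3, 86.6 and 81.5 NRPKM in the WT resting libraries (mean 78.5 ± 9.97, SD, n = 3) and at 44.7, 34.3 and 57.1 in the proliferative (45.4 ± 11.4). The hypertrophic libraries had 25.3, 24.4 and 24.2 NRPKM (24.6 ± 0.578), and the *aadd* libraries 81.4, 87.7 and 69.8 (79.7 ± 9.08). The 3 WT compartments did not overlap at any step, whereas *aadd* and resting libraries did. *Zfp521* was also the member least affected by hypertrophic replicate 1, which differed little from replicates 2 and 3. At 415 to 1594 reads per library its counting error is small. Its relative *Zfp423* was at a mean of 24.5 NRPKM in resting, 12.8 in proliferative, 12.5 in hypertrophic and 24.8 in *aadd* cells. It passed the criteria as lower in proliferative than in resting cells (log2 FC of -1.06, adjusted *P* of 0.261), a call lost in 7 of 15 alternatives. It passed as higher in *aadd* than in proliferative cells (2.11-fold, adjusted *P* of 0.203), a call lost in 5 of 16 alternatives, and than in hypertrophic cells (log2 FC of 0.99, adjusted *P* of 0.0416), with 0.83 without hypertrophic replicate 1.

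Over the 4 groups together, limma's moderated F test gave an adjusted *P* under 0.05 for 3 of the 4 members, where 13.8% of all genes had one. The adjusted *P* was 0.000303 for *Pth1r*, 0.0111 for *Pthlh*, 0.00136 for *Zfp521* and 0.140 for *Gnas*. Without hypertrophic replicate 1 that of *Gnas* was 0.0203, in a range of 0.0203 to 0.340 over all alternatives, and *Gnas* was the 1 member whose call changed when any library was left out.

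The rest of the pathway was followed in 8 lists of 94 genes, which all had a row and of which 79 passed the filter. Between WT proliferative and WT resting cells 12 of the 79 passed the criteria, 6 higher and 6 lower, which is 15.2% beside 5.53% of all genes. Between hypertrophic and resting cells 19 passed, 7 higher and 12 lower (24.1% beside 13%), and between hypertrophic and proliferative cells 14 passed, 6 higher and 8 lower (17.7% beside 9.67%). Between *aadd* and resting cells 12 passed, 5 higher and 7 lower in *aadd* (15.2% beside 6.56%). Against proliferative cells 25 passed in *aadd*, 12 higher and 13 lower (31.6% beside 15.8%), and against hypertrophic cells 34, 19 higher and 15 lower (43% beside 21.9%). At an FC of at least 2 these counts were 15 (19% beside 8.02%) and 28 (35.4% beside 13.3%). Without hypertrophic replicate 1, 29 passed between hypertrophic and resting cells (36.7% beside 19.2% of all genes in that fit), 28 between hypertrophic and proliferative cells (35.4% beside 18.4%) and 45 between *aadd* and hypertrophic cells (57% beside 34.2%), so the counts rose for all genes as well. The genes of these lists were picked for their known part in the pathway, so the shares describe the lists and test nothing.

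The hedgehog list holds the ligand that induces *Pthlh* and the proteins that receive it. Of its 11 genes tested 4 passed between proliferative and resting cells, where 5.53% of all genes did. The list median log2 FC was -0.46 beside -0.06 over all genes tested. *Ihh*, Indian hedgehog itself, was at 0.783, 0.275 and 0.517 NRPKM in the resting libraries and at 20.1, 27.0 and 40.5 in the proliferative (adjusted *P* of 0.00867). The co-receptor genes *Boc*, *Gas1* and *Cdon* went the other way. *Boc* fell from a mean of 83.1 NRPKM in resting to 12.7 in proliferative cells (adjusted *P* of 0.0270), and *Gas1* from 17.5 to 3.26 (adjusted *P* of 0.0428). In the fit that blocks on the replicate number these 3 passed the criteria, with an adjusted *P* of 0.0538 for *Ihh* (range over all alternatives 0.00181 to 0.0538), 0.0718 for *Boc* (0.00101 to 0.108) and 0.0799 for *Gas1* (0.0267 to 0.181). *Ptch1*, the hedgehog receptor and a standard target of the signal, was at 84.6 NRPKM in resting and 147.5 in proliferative cells, a 1.75-fold difference that missed the FC limit (adjusted *P* of 0.107). Between hypertrophic and resting cells 8 of the 11 passed, 2 higher and 6 lower, where 13% of all genes did. The list median log2 FC there was -1.14 beside -0.02. The counts were again 8, 2 and 6 without hypertrophic replicate 1, where 19.2% of all genes passed.

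In the mutants, *Gas1* and *Cdon* were higher and *Ptch1* and *Gli1* lower than in resting cells by the unadjusted criteria, while the third co-receptor gene, *Boc*, did not pass, at a mean of 74.5 NRPKM against 83.1. Between *aadd* and resting cells 4 of 11 passed, where 6.56% of all genes did, with a list median of -0.05 beside 0.01 over all genes. *Gas1* was at 47.3, 52.7 and 49.8 NRPKM in the *aadd* libraries against 12, 16.6 and 23.9 in the resting, so the groups did not overlap (log2 FC of 1.56, adjusted *P* of 0.130). *Cdon* was at a mean of 122 NRPKM in *aadd* against 66.9 in resting cells (log2 FC of 0.89, adjusted *P* of 0.315). *Ptch1* was at 49.6, 42.3 and 54.0 NRPKM in *aadd* against 93.6, 87.3 and 73.0 in resting libraries (log2 FC of -0.80, adjusted *P* of 0.242), and the transcription factor gene *Gli1* at 13.9 to 14.0 against 23.6 to 38.8 (log2 FC of -1.10, adjusted *P* of 0.182). *Ihh* itself was low in both, at 1.31, 0.602 and 0.693 NRPKM in *aadd*. Against proliferative and hypertrophic cells 8 of the 11 passed in *aadd*, 5 higher and 3 lower each time. Of all genes 15.8% and 21.9% passed there. Against hypertrophic cells without replicate 1, 8 passed, 6 higher and 2 lower, where 34.2% of all genes passed.

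**Figure D5:**
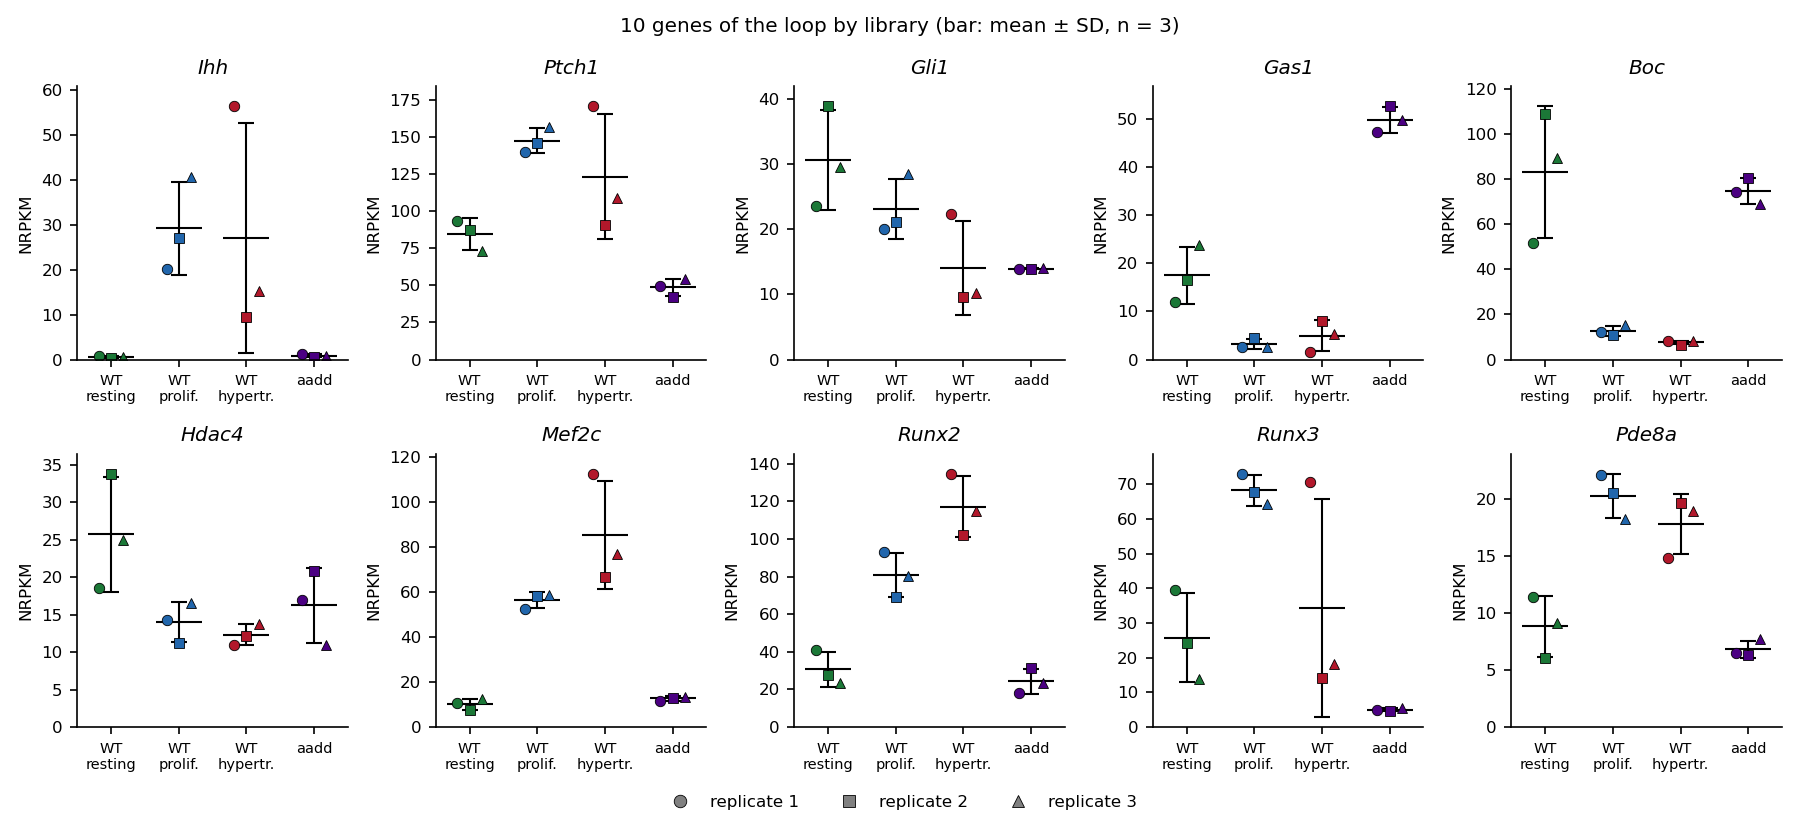
NRPKM of 10 pathway genes (1 panel each, linear axes from 0) in each of the 12 libraries, with the symbol giving the replicate and the bars the mean ± SD of the 3 libraries of a group. *Ihh*, *Mef2c*, *Runx2* and *Pde8a* are low in WT resting and *aadd*, *Boc* is high there, and *Gas1* is highest in *aadd*.

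Downstream of protein kinase A, *Mef2c* encodes a factor of the hypertrophic program that class IIa histone deacetylases such as Hdac4 hold down. *Mef2c* rose from a mean of 10.1 NRPKM in resting to 56.3 in proliferative cells (log2 FC of 2.50, adjusted *P* of 0.0131, and 0.0666 in the blocked fit, in a range of 0.000864 to 0.0666 over all alternatives) and was at 85.3 in hypertrophic and 12.7 in *aadd* cells. *Hdac4* was at 25.7, 14.0, 12.3 and 16.2 NRPKM in resting, proliferative, hypertrophic and *aadd* cells, and passed as lower in hypertrophic than in resting cells (log2 FC of -1.02, adjusted *P* of 0.0688). That call was lost in 4 of 15 alternatives, among them the fit without hypertrophic replicate 1 (log2 FC of -0.95). *Sik3*, a salt-inducible kinase that protein kinase A inhibits, passed in 0 of the 6 comparisons and had means of 29.3 to 38.7 NRPKM. In 1 of these its unadjusted *P* was under 0.05, and it passed in none of the 3 that include hypertrophic cells without replicate 1 of that group. Of the 14 genes of the list tested, 1 passed between proliferative and resting cells and 2 between hypertrophic and resting cells. Between *aadd* and resting cells 0 passed (0 also at an unadjusted *P* under 0.05 in limma). Of all genes 5.53%, 13% and 6.56% passed in these comparisons, where the list medians were -0.11, -0.07 and 0.05. There were again 2 between hypertrophic and resting cells without hypertrophic replicate 1, where 19.2% of all genes passed.

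Upstream of protein kinase A, adenylyl cyclases make cyclic AMP and phosphodiesterases break it down. The phosphodiesterase gene *Pde8a* rose from a mean of 8.82 NRPKM in resting to 20.3 in proliferative cells (adjusted *P* of 0.108) and was lower in *aadd*, at 6.82, than in proliferative (adjusted *P* of 0.00912) and hypertrophic cells (log2 FC of -1.37, adjusted *P* of 0.0119), the latter with -1.49 without hypertrophic replicate 1. Of the 11 phosphodiesterase genes, 4 passed between *aadd* and resting cells, 1 higher and 3 lower in *aadd*, where 6.56% of all genes passed. The list median was -0.14. Between *aadd* and hypertrophic cells 8 of the 11 passed, 5 higher and 3 lower in *aadd*, which is 72.7% beside 21.9% of all genes, and 10 passed without hypertrophic replicate 1, 90.9% beside 34.2%. Between WT compartments 1 of the 11 passed in proliferative against resting cells (5.53% of all genes). In hypertrophic against proliferative cells 2 passed (9.67% of all genes), and 2 in hypertrophic against resting cells (13%). The last 2 counts were 4 each without that replicate, where 18.4% and 19.2% of all genes passed. *Adcy4*, an adenylyl cyclase, fell from 9.60 NRPKM in resting to 4.11 in proliferative cells (adjusted *P* of 0.138) and was at 13.4 in *aadd*. Adenylyl cyclase and Gq-protein genes passed in 1 case of 12 between proliferative and resting cells and in 1 case between *aadd* and resting cells. Of all genes 5.53% and 6.56% passed in these comparisons.

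Among the 8 genes of protein kinase A and its inhibitors that were tested, 0 passed in the 3 comparisons between WT compartments in limma. Of all genes 5.53% to 13% passed in these comparisons. In 1 of them 1 gene of the list reached an unadjusted *P* under 0.05. That gene was *Prkar1a*, a regulatory subunit, at means of 37.1, 28.3, 51.8 and 39.4 NRPKM in resting, proliferative, hypertrophic and *aadd* cells, with an FC under 2 between hypertrophic and proliferative cells. It passed there without hypertrophic replicate 1, with a log2 FC of 1.05. So did *Rapgef4*, which encodes an exchange factor that cyclic AMP activates, with 2.18, and it passed against resting cells with 1.99. In the mutants the inhibitor gene *Pkia* passed as higher than in resting cells. It was at 7.66, 6.18 and 13.9 NRPKM in *aadd* against 3.22, 1.81 and 1.68 in resting libraries (log2 FC of 1.97, adjusted *P* of 0.182), with no overlap. *Rapgef4* passed as lower in *aadd* than in hypertrophic cells (log2 FC of -1.58, adjusted *P* of 0.194), a call lost in 7 of 15 alternatives, and had -2.32 without hypertrophic replicate 1. The receptor desensitization list gave 1 of 10 between proliferative and resting cells, where 5.53% of all genes passed. It was *Slc9a3r1*, a scaffold that binds the receptor, at 4.05, 4.12 and 3.65 NRPKM in resting and 1.96, 0.272 and 0.276 in proliferative libraries (adjusted *P* of 0.153). In proliferative replicates 2 and 3, 1 read on 1 kb of exon was worth 0.523 and 0.530 NRPKM. The size of this change thus depends on few reads and on the 0.1 added. Between hypertrophic and proliferative cells 3 of 10 passed, each higher in hypertrophic cells, where 9.67% of all genes passed. Among them was *Arrb1*, beta-arrestin 1, at 10.8 against 3.68 NRPKM (log2 FC of 1.46, adjusted *P* of 0.147). Without hypertrophic replicate 1, 5 passed, where 18.4% of all genes did, and *Arrb1* had a log2 FC of 1.80. The osteoclast and endothelial marker sums were also higher in hypertrophic replicates 2 and 3, and the part of those cells was not tested.

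The last list holds partners and targets of the brakes. *Runx2*, the maturation factor that both Nkx3-2 and Zfp521 oppose, rose from a mean of 30.6 NRPKM in resting to 80.9 in proliferative cells (adjusted *P* of 0.0856) and was at 117 in hypertrophic (log2 FC of 1.97 against resting, adjusted *P* of 0.0128, and 1.86 without hypertrophic replicate 1) and 24.3 in *aadd* cells. *Col10a1*, the collagen gene of hypertrophic cells, was at means of 3.76, 84.5, 217 and 4.23 NRPKM in the same order. *Runx3* separated the mutant from resting cells, at 4.79, 4.64 and 5.60 NRPKM in *aadd* against 39.4, 24.1 and 13.9 in resting libraries (log2 FC of -2.22, adjusted *P* of 0.130). *Sox9*, the cartilage master factor, had 12.9 and 17.6 NRPKM in hypertrophic replicates 2 and 3 but 143 in replicate 1, a value within the 141 to 186 of the other 9 libraries. Of the 12 genes of this list 3 passed between proliferative and resting cells, 4 between hypertrophic and proliferative, 5 between hypertrophic and resting and 2 between *aadd* and resting cells. Of all genes 5.53%, 9.67%, 13% and 6.56% passed in these comparisons. The counts for hypertrophic against proliferative and resting cells were 7 each without hypertrophic replicate 1, where 18.4% and 19.2% of all genes passed.

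The genes whose levels were most like those of each member across the 12 libraries, by Pearson *r* of log2(NRPKM + 0.1), are given as a description, since libraries of a group share their compartment. For *Pthlh* they included *Wdr35* (*r* of 0.975) and *Ddah1* (0.963). For *Pth1r* they were *Sgms2* (0.981), *Slc13a5* (0.973) and *Smpd3* (0.973), of which *Sgms2* went from a mean of 11.8 NRPKM in resting to 164 in proliferative and 230 in hypertrophic cells and was at 14.0 in *aadd*. For *Zfp521* they were *Cbx6* (0.978), *Tmem63a* (0.974) and *Bai2* (0.967). For *Nkx3-2* they were *Col27a1* (0.976), *Dym* (0.974) and *H19* (0.972), and for *Gnas* *Col11a1* (0.938), *C430049B03Rik* (0.933) and *Gm20362* (0.926). Among the members, *r* was 0.82 between *Pthlh* and *Zfp521*, -0.81 between *Pthlh* and *Pth1r*, -0.88 between *Pth1r* and *Zfp521* and 0.84 between *Gnas* and *Nkx3-2*. With hypertrophic replicate 1 left out these were 0.88, -0.88, -0.85 and 0.84. The last pair was lowest in hypertrophic replicates 2 and 3, where the cartilage matrix markers were also lowest.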

How the data were processed

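RNA-Seq of 12 LCM libraries was examined, 3 per group, with groups and replicate numbers per the labels. LCM was on 10 μm sections, and 20 ng of total RNA per library was amplified with the NuGEN Ovation system, tagmented with Nextera and sequenced on a HiSeq 2500. The submitters' processing notes name TopHat and build mm10, and the study used GeneSpring. The authors removed reads aligned to more than 1 position and duplicate reads, and they deposited RPKM values normalized further between libraries (NRPKM) for 36186 rows. The scaling between libraries and the use of strand are not given in the sources used here, and replicates were not pooled.

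No counts were used. The value of 1 read was taken from 1795 sensory receptor and keratin-associated genes, families taken as single-exon. In each library the 126 to 566 of them with a value above 0 were used. Their most frequent value was refined over small whole multiples. Of the values above 0, 81.8% to 92.1% per library were whole multiples of the value of 1 read, within 0.05 reads. Values of genes with several exons did not come out whole, so no count test was run, the study's test of pooled reads for *aadd* included, and a member's reads are its NRPKM times its GENCODE exon length over that value.

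The tests were those of limma 3.58.1 (R 4.3.3) on log2(NRPKM + 0.1). A gene entered if 3 or more libraries had 5 NRPKM or more, which held for 10936 genes. Pairs of groups were fitted on their own 6 libraries without covariates. Tables and plots were made with matplotlib 3.10.9, pandas 2.3.3, numpy 2.4.6 and Python 3.11.15. *P* values were two-sided and adjusted over all genes tested. The procedure was tested on simulated data. Resting and proliferative WT libraries of the same number had deviations from their group means that correlated across genes at *r* of 0.281, 0.179 and 0.198, each above 0.1. In the other pairs of groups not every *r* was, so the block is given only for resting and proliferative cells, beside the genes whose adjusted *P* it moved above 0.05.

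The genes named are the 5 members, the pathway genes that passed (at most 3 per list and comparison, by size of log2 FC), 8 fixed pathway genes and the 3 genes most like each member, of which 1 is not reported here. *Pth*, *Pth2*, *Pth2r* and *Nespos* were named after their values were seen. The members and lists were chosen with earlier results of these data known. Alternatives were a pseudocount of 1, no filter, the filter over the 6 libraries, median-of-ratios rescaling, quantile normalization, 1 fit of all 12 libraries, the replicate block, a variance trend, an adjusted *P* under 0.05 in place of the criteria, and each library left out. An FC of 2 for *aadd* against proliferative and hypertrophic cells, and *Nkx3-2* without hypertrophic replicate 1, were added after seeing the data.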

Additional observations from a re-analysis of the deposited data

How the results depend on the processing

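Of the 11 differences of members that passed the criteria, 0 reversed in 171 alternatives, and 168 kept the call. The other 3 were *Pthlh* and *Zfp521* between *aadd* and WT proliferative, where requiring an adjusted *P* under 0.05 left 1 member, and *Zfp521* again at an FC of at least 2, a limit chosen after seeing the data that left 15 pathway genes there. The replicate block left the number of members that passed at 2 between WT proliferative and resting, and it changed no count of members in the other comparisons. With each library left out in turn the members passing ranged from 0 to 1 between WT hypertrophic and proliferative, 0 to 2 between *aadd* and WT resting, 3 to 4 between *aadd* and WT hypertrophic and 3 to 4 in the F test. The pathway genes passing ranged from 5 to 28 and 14 to 29 between WT hypertrophic and, in turn, proliferative and resting, the highest without hypertrophic replicate 1. Under an adjusted *P* in limma the 6 pathway counts were 5, 0, 11, 0, 13 and 17, in the order proliferative and hypertrophic against resting with hypertrophic against proliferative between them, then *aadd* against resting, proliferative and hypertrophic. In the same order 0.622%, 0%, 6.36%, 0.119%, 3% and 7.64% of all genes had an adjusted *P* under 0.05. At an unadjusted *P* under 0.05 the 2 counts of 0 were 19 and 13 of the 79, beside 2115 and 1048 of the 10936 genes. Differences that changed sign when a library was left out had not passed. Between *aadd* and WT resting the log2 FC then ranged from -0.20 to 0.70 for *Pthlh*, -0.0011 to 0.17 for *Gnas*, -0.082 to 0.12 for *Zfp521*, -0.11 to 0.68 for *Col10a1*, -0.031 to 0.27 for *Prkar1a* and -0.020 to 0.14 for *Sik3*. Elsewhere it ranged from -1.21 to 0.068 for *Ihh* between hypertrophic and proliferative, -0.53 to 0.047, -0.14 to 0.44 and -0.37 to 0.21 for *Sik3* in hypertrophic against proliferative, hypertrophic against resting and *aadd* against hypertrophic, and -0.031 to 0.43 for *Hdac4* between *aadd* and proliferative. At this depth *Nkx3-2* in every group and *Pthlh* in hypertrophic cells rest on few reads.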
